A study of Mus musculus with 33 samples.

Results

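The binding of p53 was examined at 4 of its target genes, Zmat3, Phlda3, Aen and Ei24, in lymphomas of Eµ-myc mice. The members were the p53 peaks inside 4 chosen mm9 windows: chr3:32210000-32290000 for Zmat3, chr1:137640000-137690000 for Phlda3, chr7:86020000-86070000 for Aen and chr9:36560000-36630000 for Ei24. Of 102916 peaks in 26 lists, 127 (0.123%) overlapped a window, and no peak crossed a window's edge. Merging peaks that shared at least 1 bp gave 18927 regions, of which 11 belonged to the members: 3 in the Zmat3 window, 3 in the Phlda3 window, 1 in the Aen window and 4 in the Ei24 window. A peak was present in at least 1 window in 24 lists and in all 4 windows in 19 lists.

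The p53 protein is a transcription factor that binds response elements at its target genes when cells are stressed or when Mdm2, which inhibits it and marks it for degradation, is blocked. Zmat3 encodes a zinc finger protein that binds RNA and takes part in splicing and RNA stability. Phlda3 encodes a pleckstrin homology domain protein that restrains the survival kinase Akt. Aen encodes the apoptosis-enhancing nuclease, an exonuclease, and Ei24 encodes a protein of the endoplasmic reticulum membrane linked to apoptosis and autophagy. All 4 belong to the part of the p53 response that is less well known than cell cycle arrest through p21 or death through Puma.

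The Eµ-myc transgene drives Myc in B cells from the immunoglobulin heavy chain enhancer, and all mice were C57/Bl6. KI tumours 1 to 4 carried Eµ-myc and the genotype Trp53(KI/delta), in which a knock-in allele stands over a deleted one. By background knowledge this knock-in encodes a p53 fused to a modified oestrogen receptor, which OHT (4-hydroxytamoxifen) switches on. These tumours were given ethanol (EtOH, 1 volume per 1000) or 100 nM OHT for 2 h. Arf tumours 5 to 7 were Eµ-myc, Arf-/- and Trp53+/+, so p53 itself was intact and its upstream activator Arf was missing in every Arf group, controls included. Each Arf tumour was left untreated or was given, for 3 h, water (1 volume per 1000), DMSO (0.5 volumes per 1000), 5 µM (+)-Nutlin, 5 µM (-)-Nutlin or 1 µM doxorubicin. (-)-Nutlin is the enantiomer known to block Mdm2, (+)-Nutlin is its mirror image, used as the weak or inactive control, and doxorubicin damages DNA. Chromatin immunoprecipitation used the p53 antibody CM5p on cells pressed from lymph nodes and not purified further. Other cells of the node may therefore be included, and binding in more cells cannot be told apart from stronger binding per cell. Peak lists hold no expression values, so the labelled cell type could not be checked against markers here. Each group had 1 list per tumour, 4 in KI and 3 in Arf groups. The labels do not say whether tumours came from different mice, so p-values from comparing single groups describe these lists only.

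The lists were of 2 kinds, and the kind moved with the treatment. Narrow lists (12) had a smallest peak of 52 to 54 bp and a median width of 68 to 111 bp, and held 116 to 2180 peaks. They were all EtOH lists and, in tumours 6 and 7, those of the untreated cells and of water, DMSO and (+)-Nutlin. Wide lists (14) had a smallest peak of 278 to 391 bp and a median width of 417 to 552 bp, and held 1694 to 11346 peaks. They were all OHT, (-)-Nutlin and doxorubicin lists and every list of tumour 5. A peak in a list carries no height or score, so coverage, the number of bp in a window that lay under peaks, was used as the value per list. In KI tumours and in tumours 6 and 7, an effect of activating treatment on coverage and the list kind cannot be told apart. Tumour 5, where all 6 lists are wide, and the comparison of doxorubicin with (-)-Nutlin, where all lists are wide, do not cross this line.

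RefSeq promoters (GRCm38.p6) were at hand for 3 of the 4 genes, Phlda3, Aen and Ei24, with 4 start sites in all. They are shown because p53 acts through short sequence elements near its target genes. In the 250 bases before each start, the p53 half-site was searched on both strands, exactly and with at most 1 mismatch outside its central C and G. An exact match was found before the second of 2 listed Aen starts, at position -121, and before the Ei24 start, at position -10, counted from the start site to the match's first base. The Aen match is given with its neighbouring bases and the Ei24 match at the end of the promoter, both 5′ to 3′ on the gene's strand, with the match in capitals.
Aen start 2: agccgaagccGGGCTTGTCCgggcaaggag
Ei24: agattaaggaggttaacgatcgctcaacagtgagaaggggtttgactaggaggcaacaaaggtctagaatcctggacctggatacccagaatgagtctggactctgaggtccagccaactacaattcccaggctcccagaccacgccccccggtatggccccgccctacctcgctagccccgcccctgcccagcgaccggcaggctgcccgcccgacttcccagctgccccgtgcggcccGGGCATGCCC
The Phlda3 promoter and the other Aen promoter held no match in this stretch, also when 1 mismatch was allowed. An exact match, as before Aen start 2 and Ei24, was held by 7.13% of all 32851 promoters. A match with at most 1 mismatch was held by 44.7%, so such a match is common. Whether p53 binds at the matches shown was not tested. A full p53 site, made of 2 half-sites up to 13 bases apart, was in none of the 4 promoters, against 0.0639% of all promoters for exact half-sites and 2.2% with at most 1 mismatch in each. The peaks are placed on mm9 and these sequences on another build, so the peaks were not placed against the starts, exons or introns of the genes. In gene order on GRCm38.p6, Zmat3 lies between the coding genes Kcnmb2 and Pik3ca, Phlda3 between Csrp1 and Tnni1, Aen between Det1 and Isg20, and Ei24 between Stt3a and Fez1.

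Each window had 1 region called in far more lists than any other in that window, here termed its leading region. At Zmat3 it was chr3:32261803-32265043 (3241 bp), called in 22 lists: all 4 OHT lists, all 18 Arf lists and no EtOH list. At Phlda3 it was chr1:137662085-137663480 (1396 bp), called in 23 lists, with EtOH tumour 1 as the added one. At Aen it was chr7:86040263-86041542 (1280 bp), called in 24 lists, including EtOH tumours 1 and 3. At Ei24 it was chr9:36604157-36605407 (1251 bp), called in 19 lists: all OHT, (+)-Nutlin, (-)-Nutlin and doxorubicin lists and 2 of 3 lists each of the untreated, water and DMSO groups. The Ei24 region was thus the one absent from some Arf lists, namely untreated tumour 7, water tumour 7 and DMSO tumour 6, all of them narrow. A leading region is by choice the most often called of its window, so the share of all regions called as often is a description only. A region was called in at least as many lists as Aen's in 0.122% of the 18927 regions, as Phlda3's in 0.275%, as Zmat3's in 1.12% and as Ei24's in 2.15%. For the other 7 member regions this share was 24.7% to 100%. Only 9 regions were called in all 26 lists, and 4850 were called in 1.

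**Figure D1:**
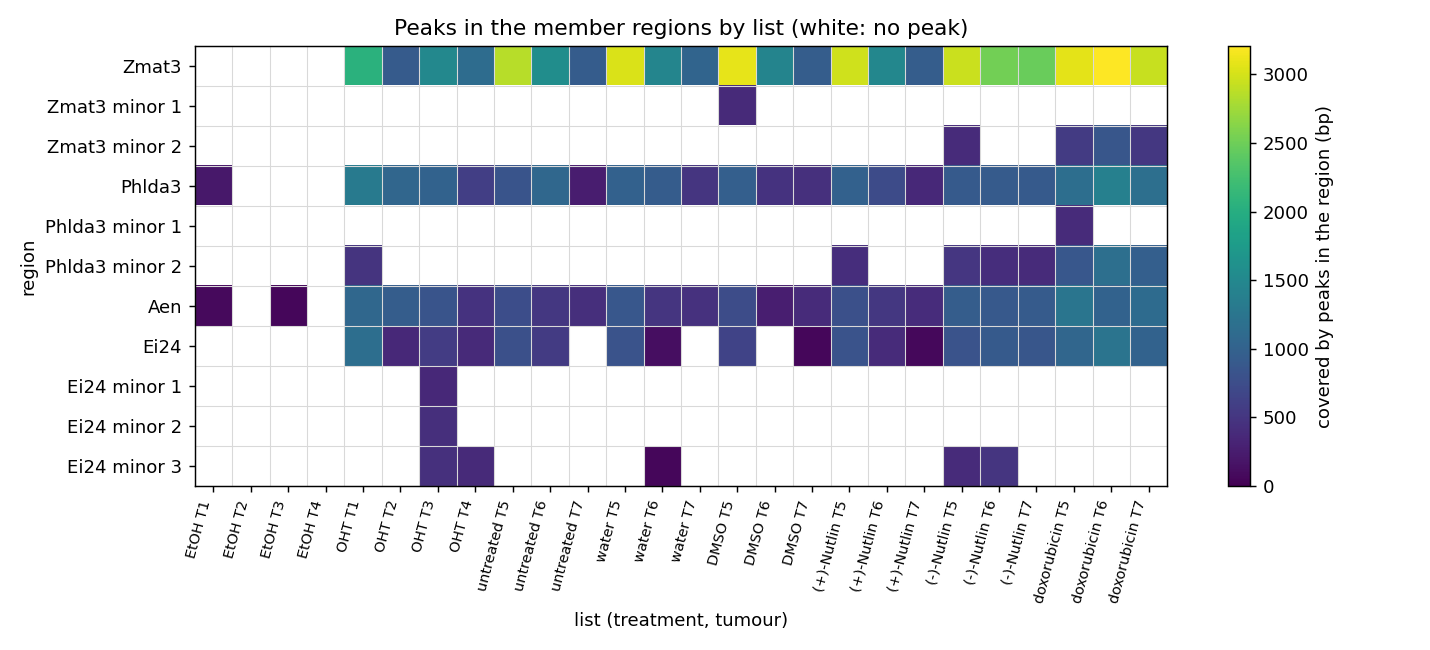
Coverage (bp, colour) of each of the 11 member regions (rows) in each of the 26 lists (columns, by treatment and tumour), with white for no peak. The leading regions fill rows from OHT onward, with 3 gaps for Ei24, and the EtOH columns hold 3 calls in all.

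The other 7 regions were called less often. In the Phlda3 window, chr1:137655889-137657066, which lay 5018 bp from the leading region, was called in 8 lists: all 3 doxorubicin, all 3 (-)-Nutlin, (+)-Nutlin tumour 5 and OHT tumour 1. Its doxorubicin peaks were 874, 1166 and 976 bp wide in tumours 5, 6 and 7, and its (-)-Nutlin peaks 511, 416 and 395 bp. Every doxorubicin peak there was wider than every (-)-Nutlin peak. In the Zmat3 window, chr3:32268655-32269509, 3611 bp from the leading region, was called in all 3 doxorubicin lists, at 555, 855 and 522 bp in tumours 5, 6 and 7, and in (-)-Nutlin tumour 5 at 397 bp. In the Ei24 window, chr9:36575139-36575636, 28520 bp from the leading region, was called in 5 lists: OHT tumours 3 and 4, (-)-Nutlin tumours 5 and 6, and water tumour 6 with a peak of 55 bp. No doxorubicin list had a peak there. The last 4 regions were called in 1 list each: chr3:32261351-32261726 in DMSO tumour 5, 76 bp from the leading Zmat3 region, chr1:137651989-137652384 in doxorubicin tumour 5, and chr9:36563050-36563424 and chr9:36564164-36564589 in OHT tumour 3. The Aen window held its leading region alone.

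Within the leading regions, peaks of different lists overlapped in a short common stretch. At Zmat3 it was broad: 597 bp (chr3:32262954-32263550) lay under a peak in all 22 lists that called the region. At Phlda3, 30 bp (chr1:137662645-137662674) were the first of 2 intervals shared by all 23 lists. At Aen, no base was shared by all 24 lists, and 69 bp (chr7:86040828-86040896) were the longer of 2 intervals shared by 23. At Ei24, 37 bp (chr9:36605014-36605050) were shared by 18 of 19 lists. The Zmat3 region had a second part. In OHT tumours 3 and 4 it consisted of 2 peaks, separated by chr3:32263729-32264366 (638 bp) at the widest common gap. A peak lay left of this gap in 22 lists and right of it in 14, and in 10 lists 1 peak spanned both. The right part was called in 13 of 14 wide lists and in 1 of 8 narrow lists with a Zmat3 peak, so its detection moved with the kind of list.

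**Figure D2:**
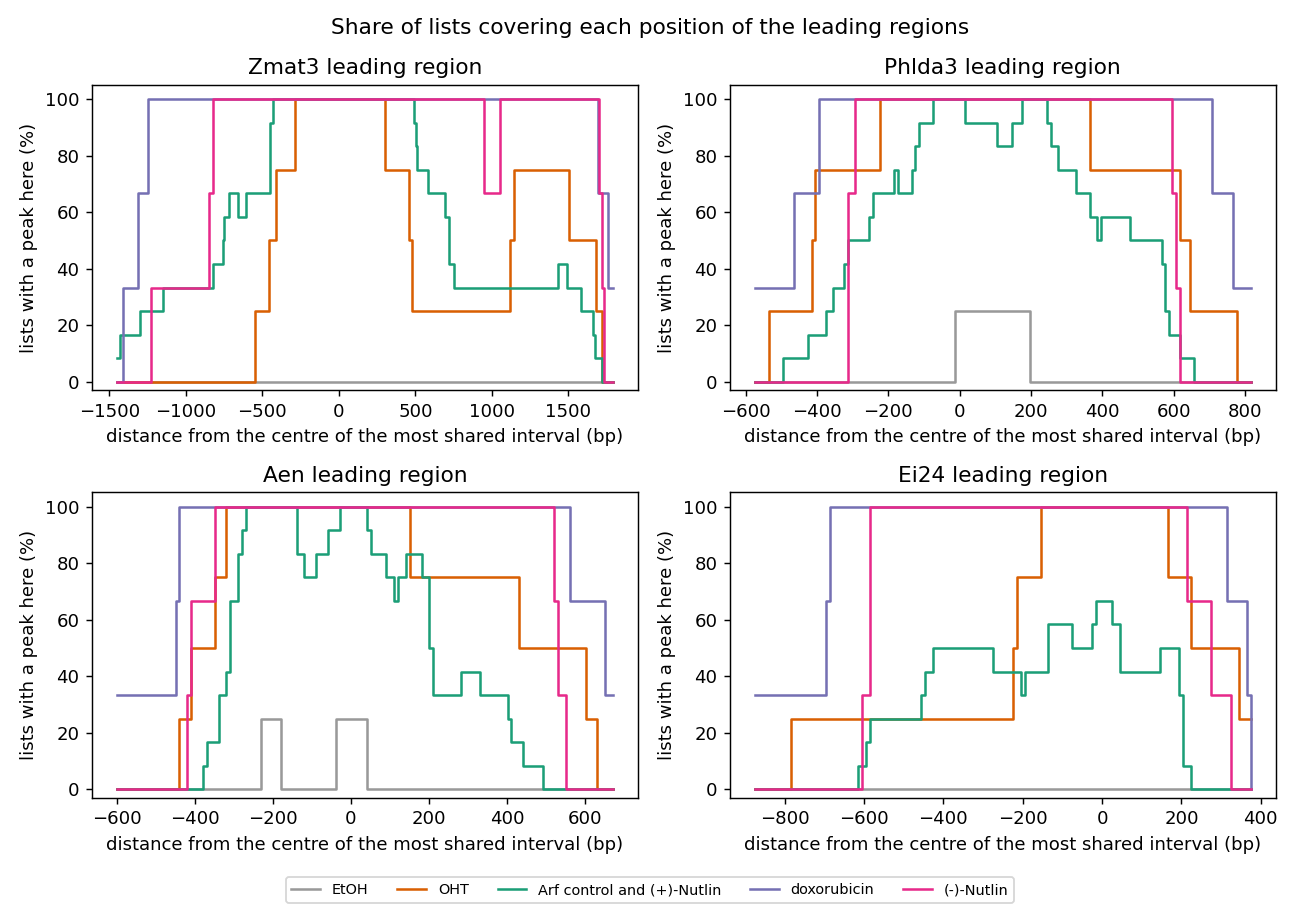
Percent of lists (vertical axis) with a peak at each position of the 4 leading regions (horizontal axis, bp from the centre of the most shared interval), for 4 EtOH, 4 OHT, 12 Arf control and (+)-Nutlin, 3 doxorubicin and 3 (-)-Nutlin lists. At Zmat3 the OHT line falls and rises again between its left and right parts, while the doxorubicin line stays at 100% across both.

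The leading Zmat3 peaks were among the widest of their own list, and those of the other genes varied more. The percentile of the widest leading peak among all peaks of the same list had a median of 99.8 over 22 lists at Zmat3 (range 80.2 to 99.99), 91.8 over 23 lists at Phlda3 (69.4 to 98.7), 85.3 over 24 lists at Aen (20.2 to 97.2) and 84.0 over 19 lists at Ei24 (11.4 to 97.5). A percentile ranks a peak within 1 list, and it moves with the number and kind of peaks in that list, so a difference between groups does not show a change at the site. The lowest Zmat3 value was in OHT tumour 4, where the region was split in 2 peaks. In untreated lists Zmat3 lay between 97.8 and 99.9. Ei24 peaks ranked low in some lists of either kind: 17.0 and 28.3 in OHT tumours 2 and 4, where the OHT median was 49.5, 11.4 in DMSO tumour 7 and 24.5 in (+)-Nutlin tumour 7. In the doxorubicin and (-)-Nutlin lists, Ei24 lay between 89.7 and 96.3.

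**Figure D3:**
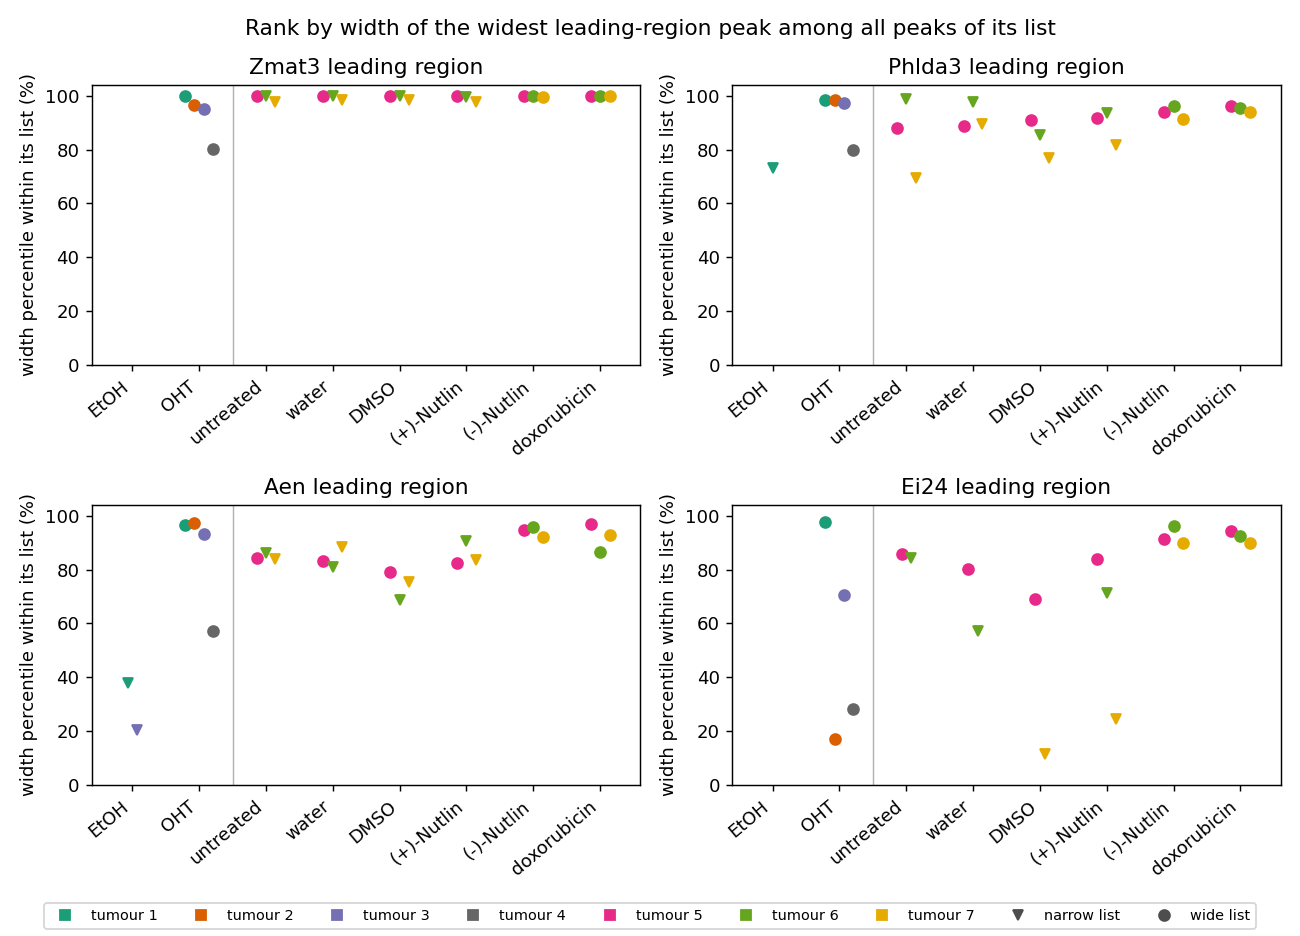
Width percentile within its own list (0 to 100%, vertical axis) of the widest leading-region peak, by treatment, with 1 point per list that had a peak (colour: tumour, triangle: narrow list, circle: wide list). Zmat3 points lie near the top in every Arf group, while Ei24 points spread from 11.4 to 97.5.

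In all 4 windows, p53 coverage was higher in the OHT lists, all of them wide, than in the EtOH lists, all of them narrow. At Zmat3, all 4 EtOH lists were at 0 bp, and OHT lists were at 2053, 916, 1493 and 1135 bp in tumours 1 to 4, a mean of 1399 ± 497 bp (SD, n = 4). At Phlda3, EtOH lists were at 205, 0, 0 and 0 bp and OHT lists at 1788, 1055, 1013 and 592 bp, a mean of 1112 ± 497 bp against 51.3 ± 103 bp. The one EtOH list with a Phlda3 peak, tumour 1, was also the highest of the 4 after OHT. At Aen, EtOH lists were at 85, 0, 55 and 0 bp and OHT lists at 1069, 952, 839 and 475 bp, a mean of 834 ± 257 bp against 35.0 ± 42.2 bp. At Ei24, EtOH lists were all at 0 bp and OHT lists at 1163, 375, 1816 and 768 bp, a mean of 1031 ± 615 bp. In no window did the groups overlap. Tumour 3 was highest at Ei24 because 3 further regions were called there, and its leading region covered 573 bp. In the leading region alone, the Ei24 difference was 623 bp. The differences of 1399, 1061, 799 and 1031 bp (OHT minus EtOH at Zmat3, Phlda3, Aen and Ei24) each had an exact permutation p of 0.0286, two-sided, over 4 against 4 lists, the smallest p this design allows. With signs flipped within tumours, the paired exact permutation p was 0.125 for each gene. This is also the smallest possible, so the paired test could neither keep nor lose the call.

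Counted by regions, 2 of the 8 member regions of the KI lists, the leading ones of Zmat3 and Ei24, were present after OHT in every tumour and never after EtOH, beside 9.31% of all 12799 KI regions. Coverage in every OHT list was above that in every EtOH list in 4 of the 8 member regions, beside 12.7% of all regions. These were the 4 leading regions. Leading regions were chosen by how often these same lists called them. Their counts, here and in the comparisons below, are therefore a description only. No KI region passed Fisher's exact test after Benjamini-Hochberg adjustment (0%, lowest adjusted p = 0.307), although 1191 regions, the leading ones of Zmat3 and Ei24 among them, had an unadjusted p of 0.0286. That is the smallest p of this test with 4 against 4 lists. Far more regions at this p would have been needed for any to pass, so the outcome says little about single regions. Because EtOH lists held 116 to 742 peaks and OHT lists 3597 to 10084, each OHT list was also reduced to its widest peaks, as many as the EtOH list of the same tumour. The differences were then 964, 793, 413 and 291 bp at Zmat3, Phlda3, Aen and Ei24, with exact permutation p-values of 0.143, 0.143, 0.429 and 1, so none of the 4 calls held.

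**Figure D4:**
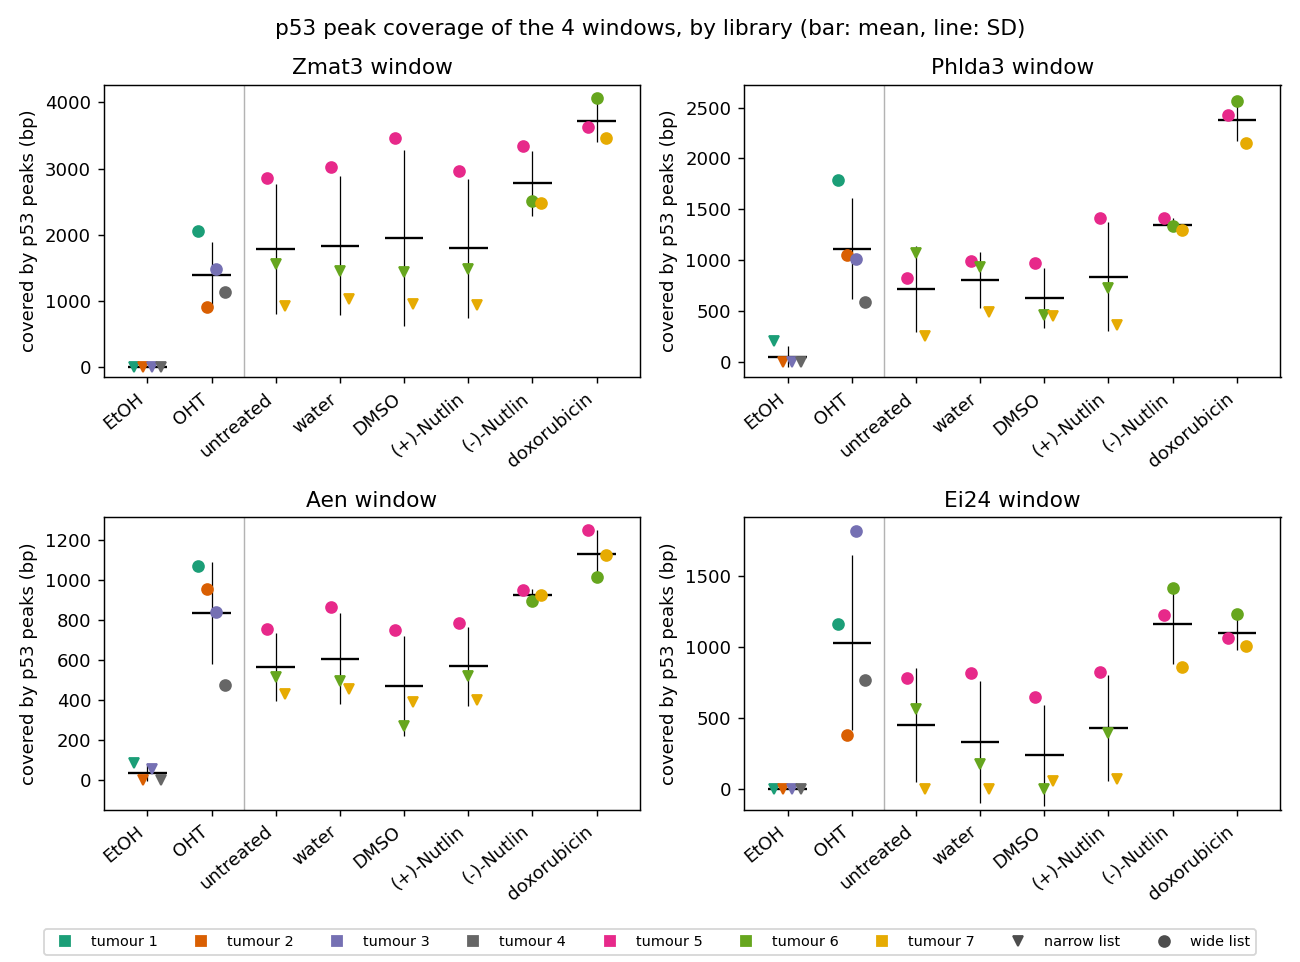
Coverage by p53 peaks (bp, vertical axis) of the 4 windows by treatment, with 1 point per list (colour: tumour, triangle: narrow list, circle: wide list), a bar for the mean and a line for the SD (n = 4 in EtOH and OHT, n = 3 elsewhere). All OHT points lie above the EtOH points, and tumour 5 lies above tumours 6 and 7 at Zmat3, Aen and Ei24 in the control groups.

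In Arf tumours, p53 peaks were present before any treatment. At Zmat3, untreated lists were at 2866, 1568 and 934 bp in tumours 5, 6 and 7, water lists at 3029, 1456 and 1031 bp, and DMSO lists at 3460, 1446 and 952 bp. The same order, tumour 5 first and 7 last, held in each of these groups. At Phlda3, untreated lists were at 829, 1073 and 254 bp, water lists at 991, 935 and 494 bp, and DMSO lists at 971, 466 and 448 bp. At Aen, untreated lists were at 755, 514 and 428 bp, water lists at 866, 496 and 453 bp, and DMSO lists at 751, 268 and 390 bp. Tumour 5 was the highest of the 3 tumours in all of these groups except for untreated Phlda3, where tumour 6 was higher. At Ei24, untreated lists were at 781, 560 and 0 bp, water lists at 817, 172 and 0 bp, and DMSO lists at 647, 0 and 55 bp, so tumour 5 was again highest. The tumour 5 lists are wide and the others narrow, so in these groups tumour and list kind cannot be told apart.

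Doxorubicin lists had more coverage than water lists in all 3 tumours at each gene. At Zmat3, doxorubicin lists were at 3625, 4062 and 3464 bp in tumours 5, 6 and 7, a mean of 3717 ± 309 bp (SD, n = 3) against 1839 ± 1053 bp in water. The lowest doxorubicin list was above the highest water list, which was that of tumour 5. This separation rested on the region 3611 bp away, since in the leading region alone the groups overlapped. At Phlda3, doxorubicin lists were at 2427, 2562 and 2148 bp, a mean of 2379 ± 211 bp against 807 ± 272 bp, which was 2.95 times as high. In the leading Phlda3 region alone, the means were 1242 and 807 bp, a difference of 435 bp, so most of the Phlda3 difference lay in the neighbouring regions. At Aen, they were at 1249, 1013 and 1124 bp, a mean of 1129 ± 118 bp against 605 ± 227 bp. At Ei24, they were at 1060, 1233 and 1004 bp, a mean of 1099 ± 119 bp against 330 ± 431 bp. Groups were separate in all 4 windows, and the differences of 1878, 1572, 524 and 769 bp (doxorubicin minus water) each gave an exact permutation p of 0.1, the smallest that 3 against 3 lists allow. The 95% intervals of the paired difference were -889 to 4645 bp at Zmat3 and 1277 to 1868 bp at Phlda3. They were 166 to 882 bp at Aen and -365 to 1904 bp at Ei24. Those at Zmat3 and Ei24 left room for a lower coverage after doxorubicin. In tumour 5, where both lists are wide, the differences were 596 bp at Zmat3, 1436 bp at Phlda3, 383 bp at Aen and 243 bp at Ei24. Tumour 5 had the smallest difference of the 3 tumours in each window, and at Phlda3 it came near those of tumours 6 and 7, 1627 and 1654 bp. The tumour 5 lists still differed in length, with 11346 peaks after doxorubicin and 2206 after water. With each doxorubicin list reduced to its widest peaks, as many as the water list of the same tumour, Zmat3 and Ei24 no longer separated (1234 bp, exact permutation p = 0.2, and 435 bp, p = 0.4), and the differences at Phlda3 and Aen were 1115 and 524 bp (p = 0.1 each).

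By regions, 2 of 8 member regions had a peak in every doxorubicin list and no water list, the regions beside the leading ones at Zmat3 and Phlda3, against 18.1% of all 15038 regions. Coverage did not overlap between these groups in 5 of 8 member regions, against 28.6% of all regions. These 5 were both of those regions and the leading regions of Phlda3, Aen and Ei24. Counted as the number of peaks, the Aen difference turned to -0.333 peaks. Water tumour 6 had 2 narrow peaks in the Aen region and every doxorubicin list 1.

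(-)-Nutlin lists were at 3342, 2519 and 2477 bp at Zmat3 in tumours 5, 6 and 7, a mean of 2779 ± 488 bp (SD, n = 3) against 1953 ± 1329 bp in DMSO, and these groups overlapped. In tumour 5, (-)-Nutlin was 118 bp below DMSO, and in tumours 6 and 7 it was 1073 and 1525 bp above. At Phlda3, (-)-Nutlin lists were at 1419, 1332 and 1297 bp, a mean of 1349 ± 62.8 bp against 628 ± 297 bp. At Aen, they were at 950, 893 and 926 bp, a mean of 923 ± 28.6 bp against 470 ± 251 bp. At Ei24, they were at 1222, 1412 and 858 bp, a mean of 1164 ± 282 bp against 234 ± 359 bp. The groups did not overlap at Phlda3, Aen and Ei24, with differences of 721, 453 and 930 bp (exact permutation p = 0.1 each, the smallest possible), and at Zmat3 the difference of 827 bp gave an exact permutation p of 0.4. The 95% intervals of the paired difference were -1282 to 2935 bp at Zmat3 and 133 to 1309 bp at Phlda3. They were -105 to 1012 bp at Aen and -145 to 2005 bp at Ei24. All but that at Phlda3 left room for a lower coverage after (-)-Nutlin. With (-)-Nutlin lists reduced to the length of the DMSO lists, the differences were 469 bp at Zmat3 and 280 bp at Phlda3, where the groups then overlapped (exact permutation p = 0.7 and 0.4), and 453 and 631 bp at Aen and Ei24 (p = 0.1 each). The value at Phlda3 was also 280 bp in its leading region alone. In tumour 5, with wide lists in both groups, (-)-Nutlin was above DMSO by 448 bp at Phlda3, 199 bp at Aen and 575 bp at Ei24. By regions, 1 of 8 member regions, the one 5018 bp from the leading Phlda3 region, had a peak in every (-)-Nutlin list and no DMSO list, against 27.9% of all 12661 regions. Coverage did not overlap in 3 of 8 member regions, that one and the leading regions of Aen and Ei24, against 36.7% of all regions.

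The enantiomers were compared directly at 5 µM and 3 h. (+)-Nutlin lists were at 2972, 1483 and 942 bp at Zmat3, 1417, 728 and 364 bp at Phlda3, 783, 517 and 401 bp at Aen, and 820, 390 and 71 bp at Ei24, in tumours 5, 6 and 7. Every one of these 12 values was below that of (-)-Nutlin in the same tumour, at Phlda3 in tumour 5 by only 2 bp. The differences ((-)-Nutlin minus (+)-Nutlin) were 980 bp at Zmat3 (95% interval of the paired difference -472 to 2432 bp), 513 bp at Phlda3 (-660 to 1686 bp), 356 bp at Aen (-90.7 to 803 bp) and 737 bp at Ei24 (-40.6 to 1515 bp). The exact permutation p-values were 0.3, 0.3, 0.1 and 0.1 in that order, so the groups were separate at Aen and Ei24 and overlapped at Zmat3 and Phlda3. With (-)-Nutlin lists reduced to the length of the (+)-Nutlin lists, the differences were 623, 72.3, 356 and 438 bp in the same order (exact permutation p = 0.5, 0.7, 0.1 and 0.1). None of the 7 member regions had a peak in every (-)-Nutlin list and no (+)-Nutlin list, against 23.6% of all 12660 regions, and coverage did not overlap in 2, the leading regions of Aen and Ei24, against 34.2%. In tumour 5, the smallest difference between the enantiomers among the 3 tumours was seen at each gene: 370, 2, 167 and 402 bp at Zmat3, Phlda3, Aen and Ei24.

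(+)-Nutlin and DMSO lists of a tumour were always of the same kind, and the coverage of the 2 groups overlapped in all 4 windows. Within tumours, (+)-Nutlin was above DMSO in all 3 at Aen, by 11 to 249 bp, and at Ei24, by 16 to 390 bp. At Phlda3 this held in 2 tumours and at Zmat3 in 1. The differences ((+)-Nutlin minus DMSO) were -154 bp at Zmat3 (95% interval -875 to 568 bp), 208 bp at Phlda3 (-460 to 876 bp), 97.3 bp at Aen (-230 to 425 bp) and 193 bp at Ei24 (-274 to 660 bp). The exact permutation p-values were 0.9, 0.7, 0.5 and 0.5, and the intervals leave room for a higher as well as a lower coverage. None of the 6 member regions was called in every (+)-Nutlin and no DMSO list, and none was without overlap, against 0.0345% of all 2901 regions by either count. The sign at Zmat3 depended on tumour 5, without which the difference was 13.5 bp. In the leading regions alone, the differences were -28.3 bp at Zmat3 and 69.7 bp at Phlda3.

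Doxorubicin and (-)-Nutlin, compared in wide lists throughout, differed by gene. Doxorubicin lists had wider peaks in general, with median widths of 498, 517 and 552 bp in tumours 5, 6 and 7. Those of (-)-Nutlin lists were 432, 417 and 525 bp. Within-list percentiles of the leading peaks had medians of 99.96, 95.6, 93.0 and 92.6 after doxorubicin at Zmat3, Phlda3, Aen and Ei24. After (-)-Nutlin they were 99.97, 94.0, 94.9 and 91.5. Whether coverage differed beyond the list-wide difference was not tested. These agents were given at different doses, 1 µM and 5 µM, for the same 3 h, so the values stand side by side as those of the treatments used. Doxorubicin coverage was above that of (-)-Nutlin in every tumour at Zmat3, by 938 bp on average (95% interval of the paired difference -631 to 2506 bp), at Phlda3, by 1030 bp (95% interval 557 to 1503 bp), and at Aen, by 206 bp (-17.3 to 429 bp), with no overlap and an exact permutation p of 0.1 each. At Ei24, doxorubicin minus (-)-Nutlin was -65.0 bp (-519 to 389 bp, exact permutation p = 0.8), and the groups overlapped. The Ei24 value included the region 28520 bp away, which (-)-Nutlin lists called in 2 tumours and doxorubicin lists in none. In the leading regions alone, doxorubicin was above (-)-Nutlin by 426 bp at Zmat3, where the groups overlapped (exact permutation p = 0.2), and by 333 bp at Phlda3, 206 bp at Aen and 234 bp at Ei24 (p = 0.1 each). By regions, none of 8 was called in every doxorubicin and no (-)-Nutlin list, against 2.61% of all 17070 regions, and 5 had coverage without overlap, against 12.9%. These were the leading regions of Phlda3, Aen and Ei24 and the neighbouring regions of Zmat3 and Phlda3 that lie 3611 and 5018 bp away.

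Since 3 against 3 lists cannot give a p under 0.05, the 6 doxorubicin and (-)-Nutlin lists were also set against the 12 other Arf lists, a comparison chosen after the data had been seen. Mean coverage was 3248 ± 630 bp (SD, n = 6) against 1845 ± 951 bp (n = 12) at Zmat3, 1864 ± 581 against 748 ± 348 bp at Phlda3, 1026 ± 136 against 552 ± 189 bp at Aen, and 1132 ± 197 against 359 ± 347 bp at Ei24. The two-sided exact permutation p-values were 0.00587, 0.000162, 5.39e-05 and 0.000162 in that order, that of Aen being the smallest possible. Permuted within tumours, they were 0.000593 at Zmat3 and 0.000296, the smallest possible, at the other genes. At Zmat3 the highest control list, DMSO tumour 5 at 3460 bp, exceeded 3 of the 6 activated lists. The Zmat3 call was lost without tumour 6 (1204 bp, exact permutation p = 0.107) and without tumour 7 (1102 bp, p = 0.0626). In the leading region alone the Phlda3 difference fell from 1117 to 362 bp (exact permutation p = 0.0168). With the activated lists reduced to the length of the longest other list of the tumour, the Phlda3 and Ei24 differences were 668 and 455 bp (exact permutation p = 0.0118 and 0.0279). Lists of 1 tumour share their cells, so the 12 and 6 lists are not independent animals. These p-values count lists of 3 tumours as replicates and describe these lists only. All 6 activated lists are wide, while the other lists of tumours 6 and 7 are narrow. Treatment and list kind therefore cannot be told apart in those tumours. The same limits hold for the presence test on these lists below. At Aen and Ei24 the groups did not overlap, in the windows or in the leading regions, which made 2 of the 9 member regions of the Arf lists, against 10.3% of all 17143 regions.

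Fisher's exact test on the presence of a peak, with Benjamini-Hochberg adjustment over the same 17143 regions, called 2 of the 9 member regions and 34.6% of all regions as more often present after doxorubicin or (-)-Nutlin. Some member regions could not be called by this test, as given below, so the shares were not compared. The region 5018 bp from the leading Phlda3 region was present in 6 of 6 activated lists and 1 of 12 others (adjusted p = 0.00453 by Fisher's exact test, 0.00958 when permuted within tumours). The region 3611 bp from the leading Zmat3 region was present in 4 of 6 and 0 of 12 (adjusted p = 0.0166 by Fisher's exact test, and 0.0232 within tumours). The leading regions of Zmat3, Phlda3 and Aen were present in all 18 lists and so could not differ in presence. The leading Ei24 region was present in 6 of 6 and 9 of 12 (Fisher's exact test, adjusted p = 0.531). Without any 1 of tumours 5, 6 and 7, the number of member regions called was 1, 0 and 0, beside 11.2%, 14.3% and 7.73% of all regions, with fewer lists in each test.

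Ordered by mean coverage, EtOH was lowest in every window. Doxorubicin was highest and (-)-Nutlin next, except at Ei24, where (-)-Nutlin was highest and doxorubicin next. The order of the other groups differed between windows. Zmat3 rose from EtOH (0 bp) through OHT (1399 bp), untreated (1789 bp), (+)-Nutlin (1799 bp), water (1839 bp) and DMSO (1953 bp) to (-)-Nutlin (2779 bp) and doxorubicin (3717 bp). OHT thus stood below the mean of every Arf control and the (+)-Nutlin group at Zmat3. Each of these means included a wide tumour 5 list, at 2866 to 3460 bp. Tumour 6 lists, at 1446 to 1568 bp, lay above the OHT mean, and tumour 7 lists, at 934 to 1031 bp, below it. Phlda3 ran from EtOH (51.3 bp) through DMSO (628 bp), untreated (719 bp), water (807 bp), (+)-Nutlin (836 bp) and OHT (1112 bp) to (-)-Nutlin (1349 bp) and doxorubicin (2379 bp). Aen ran from EtOH (35.0 bp) through DMSO (470 bp), untreated (566 bp), (+)-Nutlin (567 bp), water (605 bp), OHT (834 bp) and (-)-Nutlin (923 bp) to doxorubicin (1129 bp). Ei24 ran from EtOH (0 bp) through DMSO (234 bp), water (330 bp), (+)-Nutlin (427 bp), untreated (447 bp), OHT (1031 bp) and doxorubicin (1099 bp) to (-)-Nutlin (1164 bp). In each window the means of the untreated, water, DMSO and (+)-Nutlin groups lay closer together than the SD within any one of them. KI and Arf groups differ in genotype, time and treatment together, so no test was made between them.

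Regions elsewhere with the same pattern of calls over the 26 lists numbered 151 for Zmat3, 25 for Phlda3, 5 for Aen and 1 for Ei24. Likeness was measured by the number of lists with differing calls, and then by the mean absolute difference of the width percentile within list. The regions most like Zmat3 were chr2:127958560-127961134 and chr17:29225955-29230893, with identical calls and mean differences of 0.878 and 1.24 percentile points over 22 lists. Those most like Phlda3 were chr11:40567941-40569754 and chr7:52721013-52722713, with identical calls and 4.24 and 4.62 points over 23 lists. Those most like Aen were chr4:11081648-11084107 and chr7:139919767-139922493, with identical calls and 10.5 and 12.6 points over 24 lists. For Ei24 they were chr1:132249694-132251287, with identical calls and 14.8 points over 19 lists, and chr11:115831068-115832724, with 1 differing call and 10.6 points over 19 lists. With at most 1 differing call, there were 228 regions for Zmat3 and 8 for Ei24.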

How the data were processed

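The sources used here hold 33 libraries, 26 p53 immunoprecipitates with a peak list each and 7 inputs, which were not analysed here. Per the submitters' processing notes, BWA 0.6.2, SAMtools and mm9 were used. How peaks were called, and whether inputs entered, is not given in the sources used here. Each deposited list holds chromosome, start and end of each peak, with no score or read count, and the authors made 1 list per library, so depth is unknown and no interval for counting error was given. Groups came from the sample titles, in which the tumour number marks lists from 1 tumour and so pairs them. Deviations from group means correlated between paired lists by -0.224 to 0.176.

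Coordinates are mm9, counted from 1. Peaks sharing at least 1 bp were merged into regions, and coverage is the union of peaks overlapping a window, in Python 3.11.15 with numpy 2.4.6 and scipy 1.17.1. Coverage was compared by two-sided exact permutation tests of the difference of means over lists, 28 in all, without adjustment. Presence was compared by Fisher's exact test over all regions, called at an adjusted p under 0.05. Intervals of paired differences use the t distribution and assume normal differences. The tests were checked on simulated data. The named items are the 4 members, every region in their windows and, for each leading region (the one in most lists), the 2 most similar regions elsewhere. The members and lists were chosen with earlier results of these data known. Other p53 targets were not used, since peaks could not be assigned to genes without an mm9 annotation. Alternatives changed peak width, list length, window size, merging distance, the measure and the tumours included.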

Additional observations from a re-analysis of the deposited data

Results flagged for a closer look

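Phlda3 coverage in the EtOH group stood out because 1 list, that of tumour 1, had a peak of 205 bp and the other 3 had none. With 3 values at 0, Dixon's ratio is at its largest whatever the width of the peak, so this says no more than that 1 of 4 lists had a peak, and no chance rate applies. The ratio was taken in 8 groups, the EtOH and OHT lists at each of the 4 genes. EtOH tumour 1 was the shortest of all lists, with 116 peaks, and tumour 1 also had the highest Phlda3 coverage after OHT, 1788 bp.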

How the results depend on the processing

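Of 336 alternatives for coverage, 72 had a design that can pass the threshold: 55 kept the call, 15 lost it and 2 reversed. In the other 264, most of them with 3 against 3 lists, no call could be made: the direction was kept in 240, was 0 in 12 and reversed in 12. For OHT minus EtOH at Zmat3, Phlda3, Aen and Ei24, the calls were lost with OHT lists reduced to the length of the EtOH lists (964, 792.75, 412.75 and 290.75 bp). The replicate block, which pairs lists within tumours, left the differences at 1399, 1061, 798.75 and 1030.5 bp. Its exact permutation p was 0.125 each, the smallest it can give, so it could make no call. Leaving out 1 tumour gave 1181 to 1560, 887 to 1217, 737 to 907 and 769 to 1249 bp, where 3 against 3 lists cannot pass. With peaks set to 200 bp, Phlda3 and Aen lost the call (200 and 100 bp), as with the number of peaks (1 and 0.5 peaks), and with peaks at least as wide as the median of 457 bp Ei24 did (434 bp). At 200 bp per peak, Aen reversed for doxorubicin minus water (-66.7 bp), (-)-Nutlin minus DMSO (-133 bp), (+)-Nutlin minus DMSO (-133 bp) and the 6 activated against the 12 other lists (-94.3 bp), as did Zmat3 for (+)-Nutlin minus DMSO (66.7 bp). By number of peaks these were -0.333, -0.667, -0.667, -0.5 and 0.333. By both measures the difference was 0 at Ei24 for doxorubicin minus water, at Zmat3, Aen and Ei24 for (-)-Nutlin minus (+)-Nutlin, at Phlda3 for (+)-Nutlin minus DMSO and at Aen for doxorubicin minus (-)-Nutlin. Zmat3 also reversed for (-)-Nutlin minus DMSO in tumour 5 only (-118 bp) and for (+)-Nutlin minus DMSO without tumour 5 (-249 to 13.5 bp without 1 tumour). Ei24 reversed for doxorubicin minus (-)-Nutlin with peaks at least as wide as the median (67.7 bp) and in the leading region only (234 bp). The causes of these last changes were not tested. For the 6 against 12 lists, added after seeing the data, calls were lost at Zmat3 (116.7 bp at 200 bp per peak, 0.583 peaks, and 1204 and 1102 bp without tumours 6 and 7, but not without tumour 5, 1904 bp) and at Ei24 (50 bp, 0.25 peaks).

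Of 60 alternatives for the member regions present in every list of 1 group and none of the other, 21 changed the count, 17 of them by over 1.5 times. The share of all regions so called is given beside each count. With the first group's lists reduced in length the count was 0 for OHT minus EtOH (0.645%), doxorubicin minus water (0.697%) and (-)-Nutlin minus DMSO (2.70%). For OHT minus EtOH it was 1 with peaks of 200 bp (8.75%), and 3 with wide peaks only (6.39%), with 1 differing list allowed per group (29.6%) and without tumour 1 (18.1%). With wide peaks only it was 0 for (-)-Nutlin minus DMSO (24.0%) and 1 for doxorubicin minus (-)-Nutlin (4.28%). With 1 differing list allowed it was 2 for (-)-Nutlin minus DMSO (65.3%), 2 for (-)-Nutlin minus (+)-Nutlin (64.7%) and 1 for doxorubicin minus (-)-Nutlin (13.8%). In tumour 5 only it was 3 for doxorubicin minus water (80.7%), 3 for (-)-Nutlin minus DMSO (84.0%), 2 for (-)-Nutlin minus (+)-Nutlin (77.8%), 1 for (+)-Nutlin minus DMSO (35.5%) and 1 for doxorubicin minus (-)-Nutlin (17.6%). Without 1 tumour it was 1 to 2 for (-)-Nutlin minus DMSO (36.3% to 54.6%), 0 to 1 for (-)-Nutlin minus (+)-Nutlin (31.3% to 49.3%) and 0 to 1 for doxorubicin minus (-)-Nutlin (3.28% to 10.3%). Of 13 alternatives for Fisher's exact test, 3 moved the count of 2 member regions, to 0 to 1 without 1 tumour (7.73% to 14.3%). Where its design can pass the threshold, the replicate block changed no call.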
